A study of Mus musculus with 12 samples.

Results

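Smooth muscle deletion of Efemp2 in mouse aortic valve leaflets was examined as 1 averaged contrast, the mean of the SMKO and DKO groups against the mean of the CTRL and ECKO groups. It uses 12 of the 12 libraries in the series, 6 with the deletion and 6 without it. The leaflets came from C57BL/6J;129SvEv mice aged 2 months, with 3 libraries for each genotype code. The labels name the groups by code only. In the study as it is known, the deleted gene is Efemp2, which encodes fibulin-4, with the loss in endothelium for ECKO, in smooth muscle for SMKO, in both for DKO and in neither for CTRL. CTRL and ECKO are called intact below and SMKO and DKO deleted, each with regard to the smooth muscle gene. Endothelial deletion is thus carried by 3 of the 6 libraries on either side. The Cre drivers, the alleles that the controls may carry and the number of animals behind a library are not stated in the labels. Leaflets were cut whole from fixed, frozen and stained sections by laser microdissection, so each library mixes all cell types of the leaflet. In such bulk samples fewer cells of a type and less RNA per cell cannot be told apart. The libraries are described as biological triplicates, but none is tied to an animal, so p-values measure the spread between these libraries, which may in part be technical.

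The aortic valve leaflet is a thin flap covered by endothelial cells and filled with interstitial cells, in layers rich in collagen, proteoglycan and elastin. Elastic fibres form when tropoelastin, the product of Eln, is deposited on microfibrils and cross-linked by lysyl oxidases. Fibulin-4 binds both tropoelastin and lysyl oxidase and is required for this assembly, and its loss in mice is known for disorganised elastic fibres and aortic aneurysm.

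Depth was low and uneven, from 74827 counts in SMKO 3 to 615665 in ECKO 2, and the count of tested genes was 6296 of 41709 listed. Neither log10 depth nor the mitochondrial share of counts differed between the 6 deleted and the 6 intact libraries beyond chance assignment (exact two-sided permutation p = 0.379 and 0.307, unadjusted). The mitochondrial share was 26.7% in CTRL 3, 28.5% in SMKO 3 and 24.1% in SMKO 2, and 10.5% to 21.0% in the other libraries. Y-linked genes had 30, 89 and 28 counts in CTRL 3, SMKO 1 and DKO 3, and no other library had more than 1. SMKO 2 stood apart from SMKO 1 and SMKO 3: of 39 gene lists for valve matrix, signalling and cell types, it lay above the range of the 6 intact libraries in 27, against 2 for SMKO 1 and 4 for SMKO 3. SMKO 3, the shallowest library, stood apart in the other direction, below the intact range in 17 lists, against 6 for SMKO 1 and 5 for SMKO 2. DKO 1, 2 and 3 lay above that range in 24, 15 and 18 lists and below it in 4, 7 and 3. Any library can fall outside the range of 6 others by chance, and some lists share members, so these counts are descriptive. Markers of valve interstitial cells and fibroblasts summed to 34733 to 47657 CPM in intact and 26382 to 59325 CPM in deleted libraries, and endothelial markers to 2492 to 3444 and 2631 to 3604 CPM, so both leaflet cell types were present. CPM here is the depth-scaled level over the counts of the tested genes, with TMM scaling (which assumes most genes do not change). Acta2 and Tagln, classic smooth muscle genes, were measured in all 12 libraries, while Myh11 and Cnn1, markers of mature smooth muscle, had too few counts to be tested.

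Efemp2 (ENSMUSG00000024909), the targeted gene, was almost undetected wherever the smooth muscle gene was deleted. CTRL 1, 2 and 3 held 58, 23 and 9 counts of it and ECKO 1, 2 and 3 held 3, 15 and 8, against 4, 0 and 0 for SMKO and 0, 0 and 0 for DKO. The levels were 90.5, 38.0 and 71.6 CPM for CTRL, 16.4, 23.4 and 19.8 for ECKO and 7.30 for SMKO 1. The 6 intact libraries all lay above the 6 deleted ones, with ECKO below CTRL on the intact side, and the only counts on the deleted side came from SMKO 1. Pooled, the intact libraries held 44.6 CPM (95% exact Poisson interval 36.9 to 53.5) and the deleted libraries 2.36 CPM (0.643 to 6.04), which is 5.29% of the intact level (95% exact binomial interval 1.42% to 13.9%). The 0 counts of the 3 DKO libraries allow a level of up to 3.34 CPM, taking 3 counts as the limit. Such intervals and limits cover counting error only, since PCR copies are not independent molecules. Over the 6 and 6 libraries the exact two-sided permutation p of the log2 level was 0.00216, the smallest that 924 splits can give. In edgeR's quasi-likelihood test, the source of every adjusted p below unless another tool is named, Efemp2 fell (log2 fold change -4.80 ± 0.71, SE, adjusted p = 0.000912), a fitted value that depends on the prior count because DKO is at 0. It missed the threshold in limma-voom (-3.44, adjusted p = 0.0993) and stayed past it whichever library was left out. Which exons are deleted is not given here, and reads of Efemp2 and of Mus81 on the opposite strand cannot be told apart.

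Across the transcriptome, 13 of 6296 genes (0.206%) passed an adjusted p of 0.05 in the averaged contrast. The 10 that rose (0.159% of tested genes) were Wnt9b, LTO1, Trpv4, Sphk1, Atp13a3, Capg, Aebp1, Eln, Cst6 and Col4a1. The 3 that fell (0.0476%) were Efemp2, Ccl19 and Edil3. At an unadjusted p under 0.05 there were 661 genes (10.5%), 365 higher and 296 lower, where 315 would be expected if no gene differed. The contrast is the mean of 2 component contrasts that share no library: SMKO against CTRL, and DKO against ECKO. On its own the first component called 0 genes (0%; 344, or 5.46%, at an unadjusted p under 0.05; 0 by DESeq2 and 0 by limma-voom), and the second called 36 (0.572%), 22 higher and 14 lower. All 13 genes had the same sign in both components, 11 of them also passed in DKO against ECKO, and none passed in SMKO against CTRL or in the test of the difference between the components. Selection on the mean of the 2 components favours equal signs and passing in a component, so these counts are no separate evidence. The count of 13 rested on single libraries on both sides. It was 5 without ECKO 2, 6 without ECKO 3, 7 without ECKO 1 or CTRL 3, 8 without CTRL 1, DKO 1 or DKO 3, 30 without SMKO 3 and 95 without SMKO 1. Without SMKO 2 it was 9. With a covariate for log10 depth it was 6 and with one for the mitochondrial share 5.

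**Figure D1:**
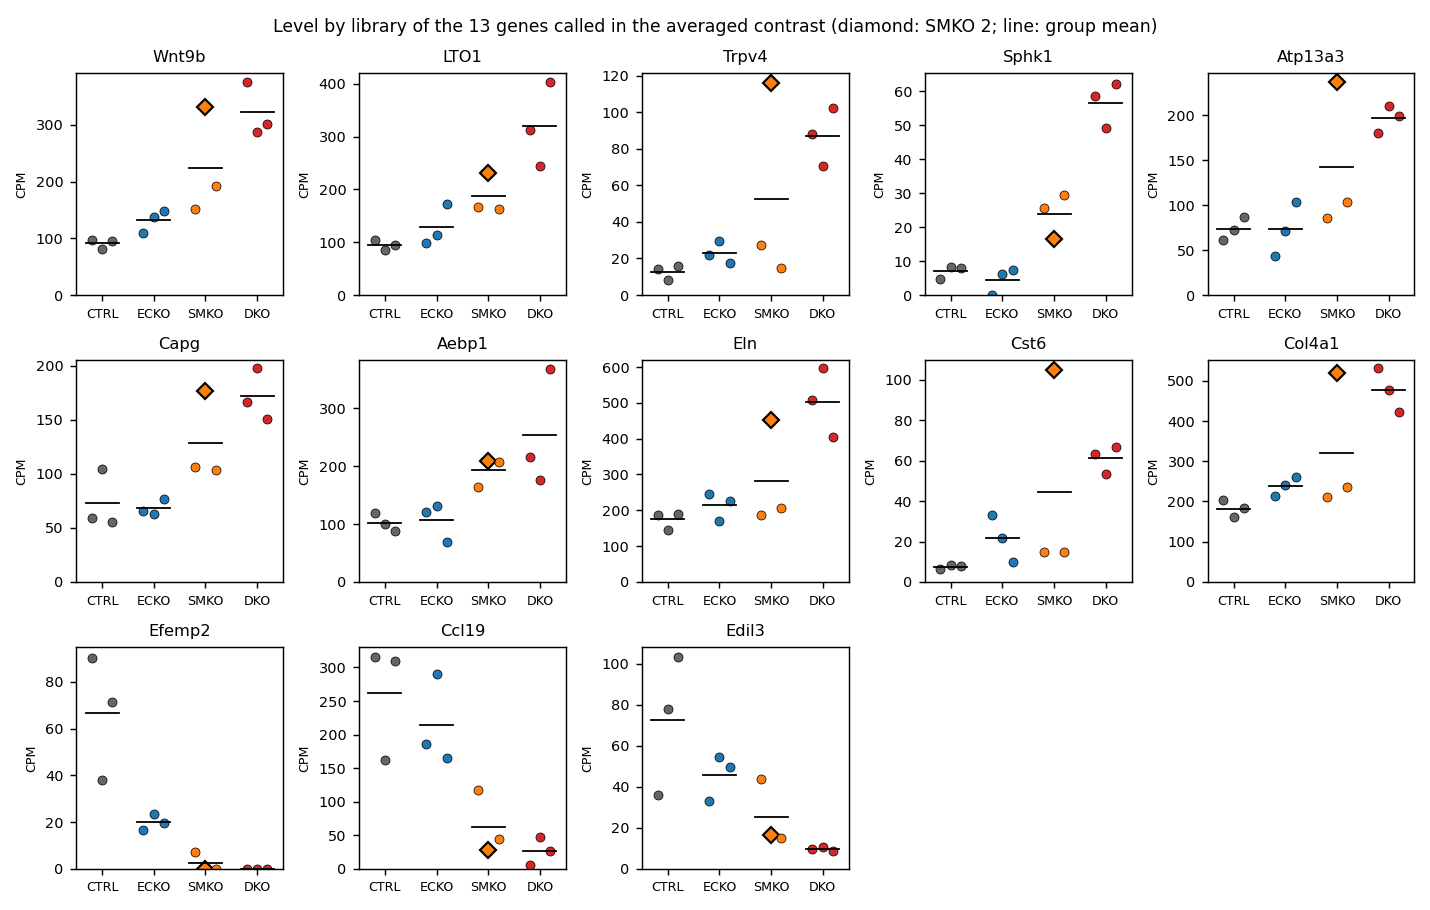
Level of each of the 13 called genes in CPM (y axis, linear from 0) in each library, by group (x axis; points are libraries, the diamond is SMKO 2 and the line is the mean of 3 libraries). DKO 1, 2 and 3 lie above all 6 intact libraries for all 10 genes that rose, as does SMKO 2, whereas SMKO 1 does so for 4 of the 10 and SMKO 3 for 3.

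Among matrix genes Eln, Col4a1 and Aebp1 rose 1.88- to 2.04-fold. Eln encodes tropoelastin, the core protein of elastic fibres. It stood at 187, 146 and 191 CPM in CTRL 1, 2 and 3, at 247, 169 and 225 in ECKO, at 186, 453 and 207 in SMKO and at 509, 597 and 404 in DKO. The 3 DKO libraries and SMKO 2 were high, while SMKO 1 and SMKO 3 lay within the intact range. Averaged, Eln rose by a log2 fold change of 0.99 ± 0.21 (SE; 95% interval 0.56 to 1.42; adjusted p = 0.0302). The components were 0.71 ± 0.31 in SMKO against CTRL (adjusted p = 0.885) and 1.26 ± 0.29 in DKO against ECKO (adjusted p = 0.0404). Its call was lost without CTRL 1, CTRL 2, CTRL 3, ECKO 1, ECKO 2, ECKO 3, SMKO 2, DKO 1 or DKO 2 (adjusted p = 0.0617 to 0.164), and the fold change was 0.70 ± 0.18 without SMKO 2.

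Col4a1 encodes a chain of collagen IV, the network-forming collagen of basement membranes. It stood at 203, 160.4 and 183 CPM in CTRL, at 214, 242 and 262 in ECKO, at 210.0, 519 and 236 in SMKO and at 533, 477 and 422 in DKO, so SMKO 2 sat with DKO, and SMKO 1 and 3 with the intact libraries. Col4a1 rose by 0.91 ± 0.20 on the log2 scale (95% interval 0.49 to 1.32; adjusted p = 0.0487). Its call was lost without CTRL 1, CTRL 2, CTRL 3, ECKO 1, ECKO 2, ECKO 3, SMKO 2, DKO 1, DKO 2 or DKO 3 (adjusted p = 0.0757 to 0.22), and the log2 fold change was 0.61 ± 0.17 without SMKO 2. Its genomic neighbour Col4a2, the partner chain of the same collagen, overlaps it on the opposite strand in the annotation and had 1.46 ± 0.38 (adjusted p = 0.173). Reads where the genes overlap cannot be told apart, because the library kit does not keep strand. Aebp1, which encodes the collagen-binding secreted protein ACLP, was one of the called genes whose 6 deleted libraries all lay above the 6 intact ones. It stood at 119, 101 and 87.5 CPM in CTRL, at 121, 131 and 69.2 in ECKO, at 164, 209.8 and 207 in SMKO and at 215, 177 and 368 in DKO. Aebp1 rose by 1.03 ± 0.21 (95% interval 0.61 to 1.45; adjusted p = 0.0187), with 0.83 ± 0.30 and 1.22 ± 0.28 in the components without and with endothelial deletion. The call was lost without CTRL 2, CTRL 3, ECKO 1, ECKO 3, SMKO 2 or DKO 3 (adjusted p = 0.051 to 0.104), while the fold change hardly moved without SMKO 2, to 0.96 ± 0.21.

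Wnt9b, Sphk1, Trpv4 and Cst6 were also among the genes that rose. Wnt9b, a secreted Wnt ligand that is expressed in valve endothelium during development, had the smallest adjusted p of the genes that rose. Wnt9b stood at 96.7, 81.0 and 95.4 CPM in CTRL, at 109.6, 137 and 148 in ECKO, at 152, 331 and 192 in SMKO and at 376, 288 and 302 in DKO, with the 6 deleted libraries all above the 6 intact ones. It rose 2.42-fold (log2 fold change 1.27 ± 0.20; 95% interval 0.88 to 1.67; adjusted p = 0.000912). The components were close in size, 1.29 ± 0.29 and 1.25 ± 0.26, and their difference was -0.04 ± 0.38. Wnt9b was called whichever library was left out, with 1.04 ± 0.18 without SMKO 2.

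Sphk1, the kinase that makes the lipid mediator sphingosine 1-phosphate, rose most among the called genes. It was close to undetected in intact leaflets, at 4.68, 8.27 and 7.95 CPM in CTRL and 0, 6.25 and 7.41 in ECKO, on 3, 5 and 1 and 0, 4 and 3 counts. It stood at 25.6, 16.6 and 29.5 CPM in SMKO and 58.7, 49.0 and 62.1 in DKO, on 14, 3 and 2 and 12, 23 and 14 counts. The deleted and intact libraries did not overlap, and SMKO 2 was the lowest deleted library here. Sphk1 rose 5.69-fold (log2 fold change 2.51 ± 0.46; 95% interval 1.56 to 3.45; adjusted p = 0.00818), with 1.78 ± 0.68 in SMKO against CTRL and 3.24 ± 0.61 in DKO against ECKO. The difference between these components was 1.46 ± 0.98 and did not pass (adjusted p = 0.886). The call was lost without CTRL 1, ECKO 2, ECKO 3, SMKO 1 or DKO 2 (adjusted p = 0.0514 to 0.0681), and the log2 fold change was 2.58 ± 0.44 without SMKO 2.

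Trpv4, a cation channel that lets in calcium on stretch or swelling, stood at 14.0, 8.27 and 15.9 CPM in CTRL, at 21.9, 29.7 and 17.3 in ECKO, at 27.4, 116 and 14.8 in SMKO and at 88.0, 70.3 and 102 in DKO. SMKO 2 was the highest of the 12 libraries, on 21 counts, and SMKO 1 and SMKO 3 lay inside the intact range, on 15 counts and 1 count. Trpv4 rose by 1.96 ± 0.35 (95% interval 1.24 to 2.68; adjusted p = 0.00796), and without SMKO 2 its fold change was 1.44 ± 0.34 and missed the threshold (adjusted p = 0.0765). Cst6 encodes cystatin E/M, an inhibitor of cysteine proteases. The arrangement was the same, at 6.24, 8.27 and 7.95 CPM in CTRL, at 32.9, 21.9 and 9.88 in ECKO, at 14.6, 105 and 14.8 in SMKO and at 63.6, 53.3 and 66.6 in DKO. Cst6 rose by 2.02 ± 0.44 (95% interval 1.12 to 2.92; adjusted p = 0.0487), was 1.27 ± 0.42 without SMKO 2, and lost its call without CTRL 1, CTRL 2, CTRL 3, ECKO 1, ECKO 2, ECKO 3, SMKO 2, DKO 1, DKO 2 or DKO 3 (adjusted p = 0.06 to 0.329).

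Ccl19 and Edil3 were the called genes that fell besides Efemp2. Ccl19, a chemokine that draws CCR7-bearing lymphocytes and dendritic cells, stood at 315, 162 and 310.1 CPM in CTRL and at 186, 290.5 and 166 in ECKO, against at 117, 27.6 and 44.3 in SMKO and at 4.89, 46.9 and 26.6 in DKO. The 6 deleted libraries all lay below the 6 intact ones, and SMKO 1 was the highest of them. Ccl19 fell by 2.27 ± 0.37 on the log2 scale (95% interval -3.08 to -1.46; adjusted p = 0.0302), with components of -1.71 ± 0.50 and -2.83 ± 0.55. The call was lost without CTRL 1, CTRL 3, ECKO 1, ECKO 2, SMKO 3 or DKO 3 (adjusted p = 0.0547 to 0.104), but not without SMKO 2 (-2.10 ± 0.34, adjusted p = 0.0185). A fit with a replicate block did not call it either (adjusted p = 0.0826). Mouse Ccl19 has closely similar copies in its gene cluster, so its counts are uncertain to the extent that the counting split such reads. Edil3, a secreted ligand of integrins on endothelial cells, stood at 35.9, 77.7 and 103 CPM in CTRL, at 32.9, 54.7 and 49.4 in ECKO, at 43.8, 16.6 and 14.8 in SMKO and at 9.78, 10.7 and 8.88 in DKO. SMKO 1 lay inside the intact range and the other deleted libraries lay below it. Edil3 fell by 1.60 ± 0.34 (95% interval -2.30 to -0.91; adjusted p = 0.0302), and its call was lost without CTRL 2, CTRL 3, ECKO 2, ECKO 3, SMKO 2, DKO 1, DKO 2 or DKO 3 (adjusted p = 0.0617 to 0.161).

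The last called genes, Capg, Atp13a3 and LTO1, rose. Capg, which caps actin filaments, stood at 59.3, 104 and 55.7 CPM in CTRL, at 65.8, 62.5 and 76.6 in ECKO, at 106, 177 and 103 in SMKO and at 166, 198 and 151 in DKO. Only SMKO 3 lay inside the intact range, whose upper end was CTRL 2. Capg rose by 1.04 ± 0.21 (adjusted p = 0.0187), and its call was lost without CTRL 1, CTRL 3, ECKO 1, ECKO 2, ECKO 3, SMKO 2, DKO 1 or DKO 2 (adjusted p = 0.0524 to 0.127), with 0.89 ± 0.21 without SMKO 2. Atp13a3, a polyamine transporter, stood at 60.8, 72.8 and 87.5 CPM in CTRL, at 43.8, 71.8 and 104 in ECKO, at 85.8, 237 and 103 in SMKO and at 181, 211 and 199.7 in DKO. It rose by 1.17 ± 0.23 (adjusted p = 0.0187), and its call was lost without CTRL 1, CTRL 2, ECKO 1, ECKO 2, SMKO 2, DKO 2 or DKO 3 (adjusted p = 0.0544 to 0.125), with 0.85 ± 0.21 without SMKO 2. LTO1 encodes an adaptor for loading iron-sulfur clusters onto a ribosome recycling factor. LTO1 stood at 104, 84.4 and 95.4 CPM in CTRL, at 98.6, 114 and 173 in ECKO, at 166, 232 and 162 in SMKO and at 313, 245 and 404 in DKO, and ECKO 3 reached into the range of the deleted libraries. It rose by 1.13 ± 0.19 (adjusted p = 0.00389) and was called whichever library was left out. LTO1 overlaps Ccnd1, the cyclin D1 gene, on the opposite strand, and Ccnd1 itself had 1.31 ± 0.69 (adjusted p = 0.583).

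**Figure D2:**
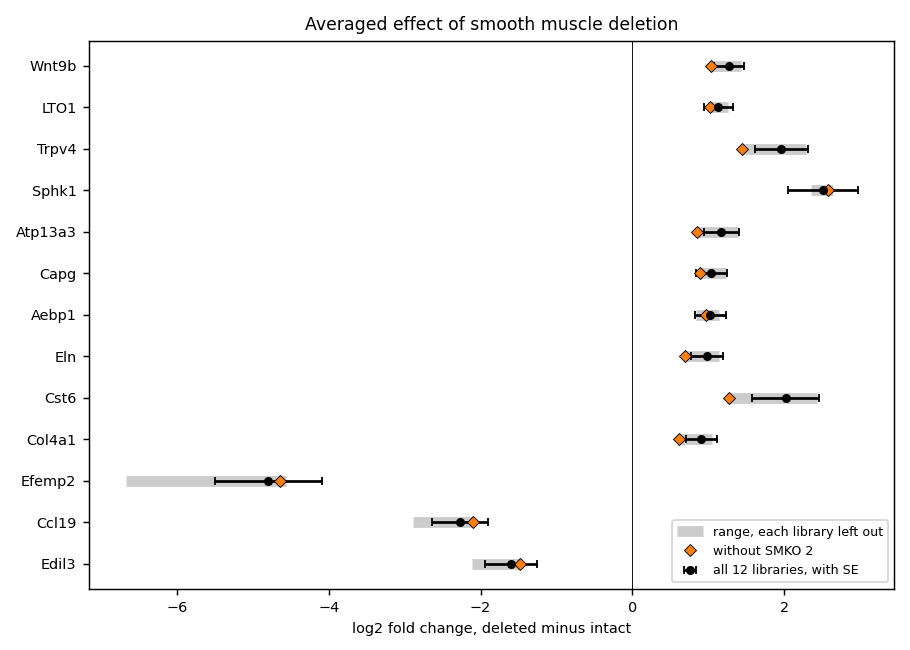
Averaged log2 fold change, deleted minus intact (x axis), of the 13 called genes (y axis): black points with bars are all 12 libraries with SE, grey bands span the fits that leave out 1 library each, and diamonds are the fits without SMKO 2. Without SMKO 2 the value falls to 1.27 for Cst6 and 1.44 for Trpv4 and stays at 2.58 for Sphk1, and no band crosses 0.

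The promoters of Wnt9b, Sphk1 and Ccl19 are shown because these signalling genes had deleted and intact libraries that did not overlap and stayed called without SMKO 2. Each runs from 250 bases before to 50 bases after an annotated start in RefSeq, build GRCm38.p6, and is printed 5′ to 3′ on the gene's strand. The reads were mapped to a later build, so these positions are not those of the counts. Capitals mark a match on either strand to the CCAAT box (ATTGG) in Wnt9b and Ccl19 and to the AP-1 motif (TGANTCA) in this Sphk1 window, 1 of several annotated starts of Sphk1.
Wnt9b, chr11:103749772-103750071, minus strand: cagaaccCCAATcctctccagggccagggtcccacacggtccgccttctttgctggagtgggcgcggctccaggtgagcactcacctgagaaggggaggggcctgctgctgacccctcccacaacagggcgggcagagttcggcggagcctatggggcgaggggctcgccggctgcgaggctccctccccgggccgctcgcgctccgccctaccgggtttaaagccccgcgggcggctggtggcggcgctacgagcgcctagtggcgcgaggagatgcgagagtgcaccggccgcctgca
Sphk1, chr11:116531587-116531886, plus strand: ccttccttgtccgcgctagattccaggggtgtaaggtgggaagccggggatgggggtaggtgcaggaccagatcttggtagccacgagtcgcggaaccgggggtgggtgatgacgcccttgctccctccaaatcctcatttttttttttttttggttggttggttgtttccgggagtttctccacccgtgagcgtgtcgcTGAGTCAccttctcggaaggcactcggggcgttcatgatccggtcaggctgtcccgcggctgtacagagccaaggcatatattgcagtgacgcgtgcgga
Ccl19, chr4:42756316-42756615, minus strand: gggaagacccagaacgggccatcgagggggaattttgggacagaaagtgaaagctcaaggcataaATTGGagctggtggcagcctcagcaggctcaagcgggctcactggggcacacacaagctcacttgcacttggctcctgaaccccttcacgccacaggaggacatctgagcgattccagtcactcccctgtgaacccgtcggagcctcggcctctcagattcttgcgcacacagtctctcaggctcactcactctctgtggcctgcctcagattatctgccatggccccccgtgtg

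A promoter was given for 5034 of the 6296 tested genes and 9 of the 13 called ones, all except Atp13a3, Eln, Cst6 and Edil3. The AP-1 motif was found in at least 1 promoter window of 6.36% of all these genes, in 10.9% of the 285 genes higher at an unadjusted p under 0.05 and in 6.28% of the 239 lower ones. The CCAAT box was found in 42.1%, 40.4% and 42.3%, the TEAD motif (GGAATG) in 14.3%, 12.6% and 14.6%, a SMAD-like motif (CAGACA) in 18.0%, 20.7% and 18.4%, and the RUNX motif (TGTGGT) in 13.6% of all, 15.4% of the higher and 31 of the 239 lower genes. Of the 9 called genes, 1 (Sphk1) held AP-1 and TEAD matches, 4 (Wnt9b, Sphk1, Col4a1 and Ccl19) a CCAAT box, and none a SMAD-like or RUNX match. Genes with more annotated starts had more windows to match in. These shares describe letters in short windows and were not tested.

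Gene by gene, the 2 component contrasts were only weakly alike. Over all 6296 tested genes, 54.1% had the same sign in both components, and the log2 fold changes had a Pearson r of 0.164 and a Spearman rho of 0.123, which are descriptions across genes within 1 fit and scaling. In the 630 genes of highest level, the same-sign share was 63.0% and r was 0.398. Over the 3148 genes above the median level r was 0.216. That value, recomputed after the data had been seen, ranged from -0.132 without SMKO 2 to 0.363 without SMKO 1, and was 0.0622 without CTRL 3 and 0.0696 without DKO 3. The same-sign share in these genes was 55.0% with all libraries and 44.9% without SMKO 2.

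**Figure D3:**
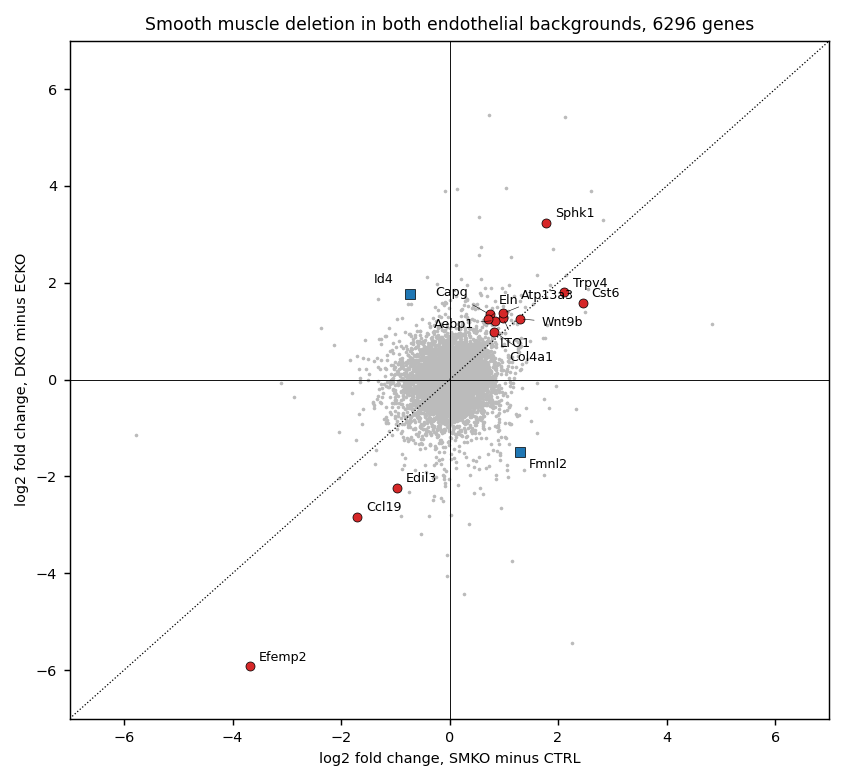
Log2 fold change of each of the 6296 tested genes in SMKO minus CTRL (x axis) and DKO minus ECKO (y axis). Red circles are the 13 genes called in the averaged contrast, blue squares the genes called for a difference between the components, and the dotted line marks equal values. All 13 called genes lie in the quadrants of equal sign, while Id4 and Fmnl2 lie in those of opposite sign. Both sets of genes were chosen from these same values, which favours such positions.

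Without SMKO 2 the averaged contrast called 9 genes, of which 5 (Efemp2, Sphk1, Wnt9b, LTO1 and Ccl19) were among the 13. The other 4, which were not among the 13, are named here after their values were seen. Igfbp5, an IGF-binding protein, stood at 1235, 1250.5 and 1352 CPM in CTRL and at 1195, 871 and 917 in ECKO, against at 867, 105 and 1123 in SMKO and at 147, 207 and 57.7 in DKO. Igf2, a fetal growth factor, stood at 233 to 533 CPM in the intact libraries, 652, 16.6 and 753 in SMKO and 4.89, 14.9 and 35.5 in DKO. Ly6a, a surface protein of progenitor and endothelial cells, stood at 184 to 286 CPM in the intact libraries, 296, 2136 and 133 in SMKO and 1291, 1507 and 1615 in DKO. Enpp2, which makes lysophosphatidic acid, stood at 246 to 407 CPM in the intact libraries, 393, 44.2 and 414 in SMKO and 117, 63.9 and 62.1 in DKO. For all 4 genes SMKO 2 sat on the side of the DKO libraries, apart from SMKO 1 and SMKO 3. With all 12 libraries their averaged log2 fold changes were -1.86 ± 0.49, -2.08 ± 0.72, 2.30 ± 0.58 and -1.17 ± 0.41, with adjusted p from 0.196 to 0.347. The components, in the same order, were -0.90, 0.27, 1.91 and -0.31 in SMKO against CTRL. In DKO against ECKO they were -2.82, -4.44, 2.70 and -2.03, so those of Igf2 had opposite signs. Without SMKO 2 the averaged values, in the same order, were -1.62 ± 0.21, -1.81 ± 0.25, 1.36 ± 0.19 and -0.93 ± 0.20, with adjusted p from 6.31e-05 to 0.0279. For Igf2 the remaining libraries SMKO 1 and SMKO 3 lay above the intact range, so its averaged fall came from DKO against ECKO. For Enpp2 SMKO 1 and SMKO 3, at 393 and 414 CPM, lay within or just above the intact range. For Ly6a, at 296 and 133 CPM, they lay to either side of it. Without SMKO 2 the calls of Enpp2 and Ly6a thus also rested on DKO against ECKO. For Igfbp5 SMKO 1 and SMKO 3 lay below the CTRL libraries.

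Most members of the collagen-related lists lay above 0, with few calls. Medians below are of averaged log2 fold changes and stand beside a median of 0.00375 over all tested genes, of which 50.6% were above 0. A range after a median spans the fits that leave out 1 library each, and is given where these move it by over 1.5 times or across 0. Of 13 tested fibrillar and fibril-associated collagen genes, 12 were above 0, none was called, and 7 had an unadjusted p under 0.05 and were higher, where 5.8% of all tested genes did. Their median was 0.57 (range 0.25 to 0.65) and 0.25 without SMKO 2. Examples are Col16a1 at 0.77 ± 0.22 (adjusted p = 0.129), Col6a1 at 0.70 ± 0.22 (0.174), Col5a2 at 0.63 ± 0.23 (0.264) and Col6a3 at 0.57 ± 0.21 (0.274). Summed, the list stood at 9130.2, 7048 and 9382 CPM in CTRL, at 11951, 10575 and 9463 in ECKO, at 8965, 16952 and 8316 in SMKO and at 17876, 15026 and 17498 in DKO. SMKO 1 and SMKO 3 lay within the intact range, and SMKO 2 and the 3 DKO libraries above it.

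Collagen folding and processing enzymes followed the same pattern, with 18 of 19 tested members above 0, none called, 10 higher at an unadjusted p under 0.05 and a median of 0.43. Sparc, a collagen-binding protein counted in this list, had the smallest p (1.55 ± 0.38, adjusted p = 0.0765) and ranged over 2079 to 4663 CPM in intact and 2748 to 16958 CPM in deleted libraries. The chaperones Fkbp10 and Serpinh1 were at 0.67 ± 0.20 and 0.61 ± 0.20 (adjusted p = 0.153 and 0.22). In the basement membrane list 11 of 13 tested members were above 0 and Col4a1 was called, with a median of 0.39. Col18a1 and Col15a1, collagens of the basement membrane zone, were at 1.00 ± 0.27 and 1.41 ± 0.43 (adjusted p = 0.107 and 0.249). Lysyl oxidases, which cross-link elastin and collagen, had 4 of 4 tested members above 0 and none called, led by Loxl2 at 0.78 ± 0.22 (adjusted p = 0.129). Their median was 0.66 (range 0.25 to 0.95), with 0.14 in SMKO against CTRL and 0.99 in DKO against ECKO.

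The elastic fibre and microfibril list was split, with 9 of 15 tested members above 0 and a median of 0.12 (range 0.03 to 0.23). Its 2 calls went opposite ways, Eln up and Efemp2, the deleted gene, down. Fbln2, another fibulin, was at 0.61 ± 0.19 (adjusted p = 0.183) and Mfap5, a microfibril protein, at -0.48 ± 0.18 (adjusted p = 0.305). Small leucine-rich proteoglycans, which bind collagen fibrils, had 3 of 8 tested members above 0, none called and a median of -0.14 (range -0.27 to -0.04). Ogn had the smallest p of these, at -0.98 ± 0.23 (adjusted p = 0.0608), with 148, 49.7 and 222 CPM in SMKO and 39.1, 53.3 and 48.8 in DKO against 119 to 198 in intact libraries. Adamts5, a protease of versican and aggrecan, stood at 48.4 to 159 CPM in the intact and 34.2 to 46.9 in the deleted libraries without overlap, but did not pass (-0.90 ± 0.27, adjusted p = 0.152).

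**Figure D4:**
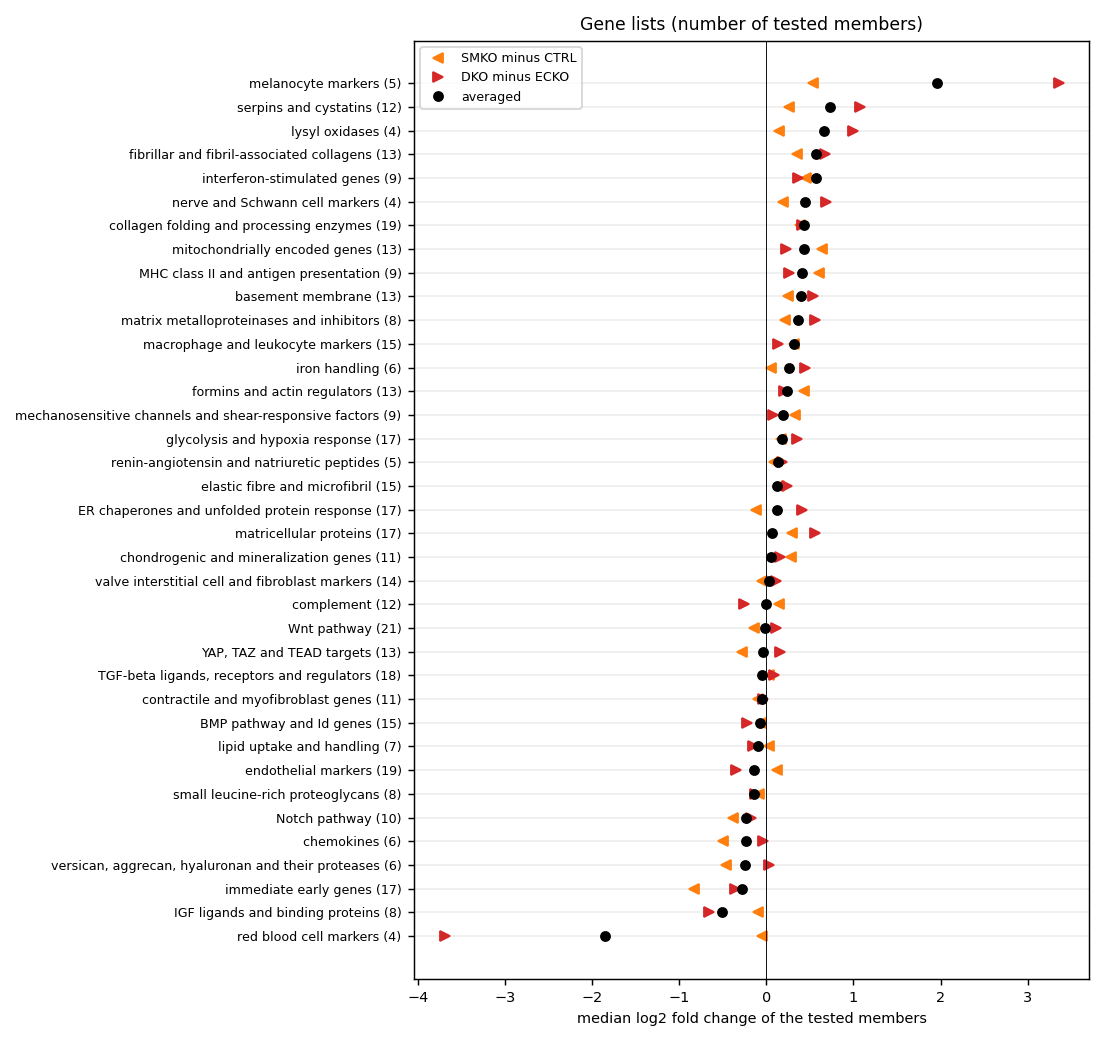
Median log2 fold change of the tested members (x axis) of each gene list with at least 3 of them (y axis, number of tested members in brackets): black circles are the averaged contrast, left-pointing triangles SMKO minus CTRL and right-pointing triangles DKO minus ECKO. Serpins and cystatins lie at 0.73, fibrillar collagens at 0.57 and IGF genes at -0.51 on average, and melanocyte and red blood cell markers lie farthest from 0.

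Of 12 tested serpins and cystatins, 11 were above 0, Cst6 was called, and the median was 0.73 (range 0.21 to 0.94), or 0.21 without SMKO 2. Serpinb1a and Serpini1 were at 1.66 ± 0.38 and 1.16 ± 0.30 (adjusted p = 0.0652 and 0.0921). Matrix metalloproteinases and their inhibitors had 7 of 8 tested members above 0, none called, and a median of 0.36 (range 0.20 to 0.45), with Timp1 at 1.43 ± 0.46 and Mmp2 at 0.54 ± 0.21 (adjusted p = 0.294 and 0.332). Matricellular proteins, which modulate contacts between cells and matrix, had 9 of 17 above 0 and 1 call, Edil3, which fell. In that list Mfge8, a relative of Edil3 that bridges to apoptotic cells, lay on the other side of 0, at 0.80 ± 0.21 (adjusted p = 0.0969). Ccn2, a growth-factor-binding protein induced by TGF-beta, was at 0.76 ± 0.26 (adjusted p = 0.22), from -0.08 in SMKO against CTRL and 1.59 in DKO against ECKO.

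**Figure D5:**
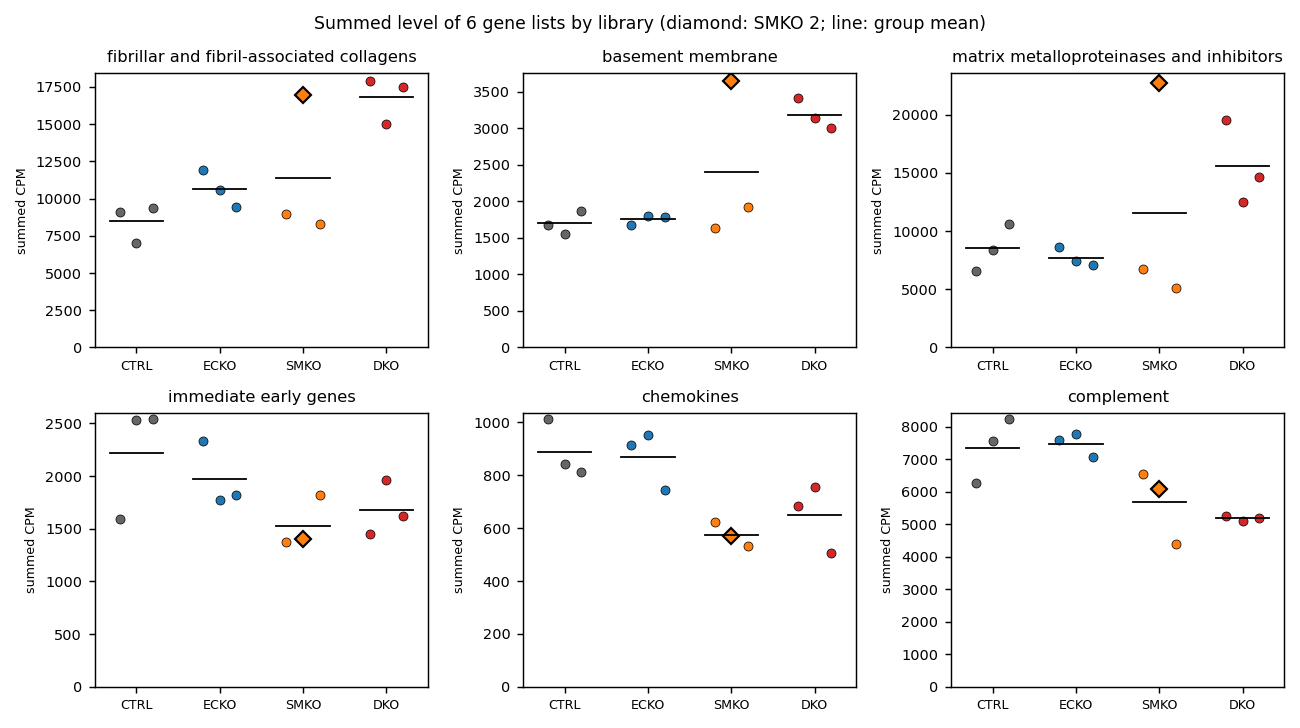
Summed CPM of the members of 6 gene lists (y axis, linear from 0) in each library, by group (x axis; points are libraries, the diamond is SMKO 2 and the line is the mean of 3). For the collagen, basement membrane and metalloproteinase lists SMKO 2 and DKO lie above the intact libraries, and SMKO 1 and SMKO 3 within or close to their range. For chemokines DKO 2 is the deleted library that lies within the intact range.

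Signalling lists held 2 called genes, Wnt9b and Trpv4. In the Wnt pathway list 10 of 21 tested members were above 0, with a median of -0.02 (range -0.20 to 0.02) and Wnt9b as the 1 call. The Wnt target Axin2 was at -0.56 ± 0.23 and the ligand Wnt9a at -0.98 ± 0.43 (adjusted p = 0.361 and 0.418). Of 18 tested TGF-beta ligands, receptors and regulators none was called, and the median was -0.04 (range -0.09 to 0.01). Inhba, an activin subunit, and Fst, an activin antagonist, were at 1.15 ± 0.35 and 1.52 ± 0.47, and the co-receptor Tgfbr3 at -0.61 ± 0.19 (adjusted p = 0.22, 0.228 and 0.196). The BMP and Id gene list had 7 of 15 tested members above 0 and none called, with Id2 at -0.72 ± 0.20 and the inhibitory Smad6 at -0.74 ± 0.23 (adjusted p = 0.107 and 0.17). Notch pathway genes had 1 of 10 above 0 and none called, a median of -0.23 (range -0.38 to -0.21), and Jag1 and Hey1 at -0.70 ± 0.27 and -0.83 ± 0.33 (adjusted p = 0.312 and 0.337). YAP, TAZ and TEAD targets had 5 of 13 above 0 and none called, with medians of -0.28 in SMKO against CTRL and 0.15 in DKO against ECKO. Summed, this list stood at 2631 to 3188 CPM in intact libraries, at 2378, 3864 and 2275 in SMKO and at 5794, 5149 and 4456 in DKO. SMKO 2 and the DKO libraries thus lay above the intact range, and SMKO 1 and SMKO 3 below it.

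Immediate early genes, transcription factors and regulators induced within minutes of a stimulus, had more members below than above 0. Of 17 tested, 11 were below 0, none was called and 8 were lower at an unadjusted p under 0.05, where 4.7% of all tested genes were, with a median of -0.28 (range -0.60 to -0.25). The median was -0.83 in SMKO against CTRL and -0.36 in DKO against ECKO. Btg2 was at -1.03 ± 0.25, Fos at -1.61 ± 0.41 and Nr4a1 at -0.99 ± 0.26 (adjusted p = 0.0639, 0.0936 and 0.107). The summed level ranged over 1589 to 2544 CPM in intact and 1372 to 1965 in deleted libraries, which overlap. IGF ligands and binding proteins had 6 of 8 tested members below 0 and none called, with a median of -0.51, and their 4 lowest libraries for Igfbp5 and Igf2 were SMKO 2 and the 3 DKO libraries, as given above. Igfbp7, a further binding protein, lay on the other side of 0, at 1.03 ± 0.35 (adjusted p = 0.231). Summed, the IGF list stood at 7131 to 10044 CPM in intact libraries. It stood at 7747, 19503 and 6248 in SMKO and at 17270, 10561 and 13020 in DKO. SMKO 2 and the 3 DKO libraries thus lay above the intact range, against the sign of the median.

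Immune lists gave 1 call. Among 6 tested chemokine genes 4 were below 0 and Ccl19 fell. Cxcl12, a chemokine that retains leukocytes, was at -0.73 ± 0.21 and Ccl2, a monocyte chemokine, at 1.25 ± 0.42 (adjusted p = 0.127 and 0.228). The summed chemokine level stood at 1012, 844 and 811 CPM in CTRL and at 915, 951 and 746 in ECKO, at 625, 569 and 532 in SMKO and at 685, 757 and 506 in DKO, so only DKO 2 lay within the intact range. Complement genes split evenly, 6 above and 6 below 0, with none called. Genes of MHC class II and antigen presentation had 8 of 9 above 0 and interferon-stimulated genes 7 of 9, with none called, and Cd74 and Oasl2 at 0.52 ± 0.22 and 0.75 ± 0.26 (adjusted p = 0.392 and 0.243).

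In the lists for the cytoskeleton and metabolism the only call was Capg, already described. It was among 13 tested formins and actin regulators (8 above 0, median 0.23 (range -0.02 to 0.40), and -0.02 without SMKO 2). Trpv4, counted above with the signalling lists, was among 9 tested mechanosensitive channels and shear-responsive factors (7 above 0, median 0.19 (range 0.09 to 0.28)). In the list of renin-angiotensin and natriuretic peptide genes 4 of 5 tested members were above 0. Ace, the angiotensin-converting enzyme, had the smallest p there, with 214 to 342 CPM in intact libraries, 298, 574 and 192 in SMKO and 538, 569 and 568 in DKO (0.84 ± 0.21, adjusted p = 0.0652). Iron handling genes had 4 of 6 above 0, with the iron carrier Trf at 279 to 367 CPM in intact libraries, 287, 574 and 295 in SMKO and 856, 582 and 1136 in DKO (0.84 ± 0.21, adjusted p = 0.0652). For both genes SMKO 2 and the 3 DKO libraries lay above the intact range and SMKO 1 and SMKO 3 did not. The remaining medians were 0.12 (range 0.00 to 0.18) for 17 ER chaperones and unfolded protein response genes, 0.18 (range 0.12 to 0.31) for 17 glycolysis and hypoxia genes, -0.09 (range -0.23 to 0.02) for 7 lipid handling genes, and -0.24 (range -0.42 to 0.00) for 6 genes of versican, aggrecan, hyaluronan and their proteases. Among 11 tested chondrogenic and mineralization genes the median was 0.06 (range -0.10 to 0.19). Mgp, a matrix inhibitor of calcification, stood at 10298 to 18248 CPM in intact libraries, 10691, 73214 and 12644 in SMKO and 27279, 23645 and 27927 in DKO (1.03 ± 0.39, adjusted p = 0.301), so SMKO 2 was far above every other library.

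The cell type marker lists held no called gene. Contractile and myofibroblast genes had 5 of 11 tested members above 0 and a median of -0.05 (range -0.20 to 0.04). Acta2, smooth muscle actin, was at 0.05 ± 0.18 (adjusted p = 0.966) and stood at 144 to 199 CPM in intact and 118 to 249 in deleted libraries. Synpo2, an actin-associated protein of muscle, was at -1.21 ± 0.34 (adjusted p = 0.127). Interstitial cell and fibroblast markers had 7 of 14 above 0 and a median of 0.03 (range -0.17 to 0.08), or -0.17 without SMKO 2, with Pdgfra at -1.11 ± 0.30 and Col1a1 at 0.72 ± 0.27 (adjusted p = 0.156 and 0.287). Endothelial markers had 13 of 19 below 0 and a median of -0.14 (range -0.17 to -0.08), with Prox1 and Kdr at -1.39 ± 0.35 and -1.02 ± 0.27 and Pecam1 at 0.44 ± 0.19 (adjusted p = 0.0765, 0.107 and 0.399). The endothelial median had opposite signs in the components, 0.12 in SMKO against CTRL and -0.35 in DKO against ECKO.

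Melanocytes are pigment cells that reside in mouse valve leaflets, and their markers varied widely. Their sum stood at 359, 781 and 246 CPM in CTRL, at 82.2, 78.1 and 128 in ECKO, at 690.3, 1159 and 222 in SMKO and at 1007, 437 and 453 in DKO. ECKO was low, and the deleted libraries lay within or above the range of CTRL except SMKO 3. Of 5 tested members 4 were above 0, led by Dct, an enzyme of melanin synthesis (1.56 ± 0.32, adjusted p = 0.0652), and the median was 1.95. Nerve and Schwann cell markers had 3 of 4 tested members above 0 and a median of 0.44 (range 0.19 to 0.55). Red blood cell markers, with 4 of 4 tested below 0 and a median of -1.85 (range -2.43 to -0.96), summed to 43.8 to 5953 CPM in intact and 107 to 2442 in deleted libraries, and macrophage and leukocyte markers to 1258 to 2148 and 1198 to 4946, the highest in SMKO 2. The red blood cell median was -0.05 in SMKO against CTRL and -3.69 in DKO against ECKO, with ECKO 2 and ECKO 3 at 5953 and 3607 CPM. Heart muscle markers were at most 118 CPM in deleted and 1059 CPM in intact libraries, the latter in ECKO 2, and adipocyte markers at most 88.6 CPM, with Cidec, Lep, Cfd and Retn at 0 in every library. Mitochondrially encoded genes had 13 of 13 above 0, none called, and a median of 0.43 (range 0.28 to 0.77). The part of these cells, and of the mitochondrial share, in the gene results was not tested beyond the fits with a covariate given in the closing section.

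A plain look at separation gave a wider set than the model. The 6 deleted libraries lay wholly above or below the 6 intact ones for 37 genes (0.588% of tested), 9 higher (0.143%) and 28 lower (0.445%), and 5 of these 37 were among the 13 called (Wnt9b, Sphk1, Aebp1, Ccl19 and Efemp2). With libraries assigned at random, a gene without ties separates this way with a probability of 0.00216, as in the permutation test above. Some of the 37 can thus be expected from random assignment. The genes named next were chosen after their values were seen. S100a1, a calcium-binding protein, stood at 39.8 to 112 CPM intact and 133 to 200.5 deleted (0.81 ± 0.20, adjusted p = 0.0652), and Chpf, a chondroitin polymerising factor, at 103 to 142 and 149.8 to 248 (0.63 ± 0.18, 0.127). On the lower side were Otud1, a deubiquitinase, at 28.1 to 56.1 and 4.26 to 22.2 (-1.56 ± 0.38, 0.0652), and Grb10, an adaptor that restrains insulin and IGF receptor signalling, at 111 to 159 and 27.6 to 92.9 (-0.85 ± 0.22, 0.0855). Dmd, which encodes dystrophin, and Prkg1, the cGMP-dependent kinase of smooth muscle, were at -0.87 ± 0.27 and -0.85 ± 0.29 (adjusted p = 0.174 and 0.242). None of these 6 passed in the averaged contrast. Otud1 rested on 11, 3 and 1 counts in SMKO and 1, 2 and 5 in DKO. Prkg1 rested on 18, 5 and 1 counts in SMKO and 4, 7 and 7 in DKO. Separation takes no account of such low counts or of the depth of SMKO 3.

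Whether smooth muscle deletion acted differently with and without endothelial deletion was tested as the difference between the components, and 2 of 6296 genes (0.0318%) passed. Id4, an inhibitor of helix-loop-helix transcription factors, stood at 279, 273 and 342 CPM in CTRL, at 93.2, 123 and 81.5 in ECKO, at 194, 138 and 207 in SMKO and at 528, 335 and 182 in DKO. It was -0.73 ± 0.31 in SMKO against CTRL and 1.77 ± 0.30 in DKO against ECKO, a difference of 2.50 ± 0.43 (adjusted p = 0.0104). Fmnl2, a formin that extends actin filaments at the leading edge, stood at 34.3, 38.0 and 39.8, 49.3, 81.2 and 101, 106, 71.8 and 73.9 and 29.3, 21.3 and 39.9 CPM in the same order. Its components were 1.29 ± 0.34 and -1.50 ± 0.36, a difference of -2.79 ± 0.49 (adjusted p = 0.0104). In the averaged contrast Id4 was at 0.52 ± 0.21 (95% interval 0.09 to 0.96) and Fmnl2 at -0.10 ± 0.25 (95% interval -0.61 to 0.41), and neither passed (adjusted p = 0.353 and 0.942). The count of 2 was 0 without CTRL 1, ECKO 3, SMKO 1, DKO 1 or DKO 2, 1 without CTRL 2 or ECKO 2, and 62 without SMKO 2. For comparison, endothelial deletion averaged over smooth muscle status, which uses the same 12 libraries, called 0 genes (0%; 313, or 4.97%, at an unadjusted p under 0.05; 0 by DESeq2 and 1 by limma-voom), and 37 without SMKO 2 (1 without CTRL 3 or ECKO 1).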

How the data were processed

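RNA of laser-microdissected aortic valve leaflets (20 µm sections) was sequenced in 12 mouse libraries, 3 per genotype code, with paired reads of 75 bases from a kit that does not keep strand, per the labels. The authors deposited whole-number total counts per gene and TPM, per the file headers. The genome build was GRCm39, according to the submitters' processing notes. The aligner and counter are not stated in the labels. TPM values deposited by the authors were not used in tests. A count was above 0 in at least 1 library for 16588 of 41709 genes, and no deposited per-sample column was left unused for lack of a match.

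Genes passing edgeR's filter (10 counts in at least 3 libraries, scaled to library size) were scaled by TMM and fitted with 4 groups (edgeR 4.0.16 in R 4.3.3, robust quasi-likelihood F test, common biological coefficient of variation 0.246). The tested genes hold 93.1% of counts. The contrasts were (SMKO + DKO)/2 minus (CTRL + ECKO)/2, its 2 component contrasts, their difference and the endothelial equivalent. P-values were adjusted by Benjamini-Hochberg over all 6296 tested genes of each contrast, and a gene is called at an adjusted p under 0.05. Standard errors were derived from each fold change and its F statistic. The procedure was tested on simulated data. limma 3.58.1 (voom), DESeq2 1.42.0, other scalings, filters, models and covariates, and fits without single libraries were alternatives. Replicates of a group differed by more than counting noise (chi-square per degree of freedom 1.85 to 9.64), so none were merged.

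Named genes were the called ones, up to 4 members per list with the smallest p, and those with the smallest p for the difference between the components, besides genes said to be chosen after their values were seen, gene neighbours, and Acta2 and Pecam1 as defining markers. Genes named Gm or Rik were left out of naming. The contrast, gene lists and naming rule were chosen with earlier results of these data known. Promoters come from RefSeq GRCm38.p6, and overlaps from the exons of a GENCODE annotation of GRCm38.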

Additional observations from a re-analysis of the deposited data

Results flagged for a closer look

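The effect of smooth muscle deletion differed with endothelial status for 2 genes by the test of that difference in edgeR's quasi-likelihood fit. For Id4 the value in DKO against ECKO exceeded that in SMKO against CTRL by 2.50 on the log2 scale, with all 3 DKO libraries above all 3 ECKO libraries and all 3 SMKO libraries below all 3 CTRL libraries. For Fmnl2 the difference was -2.79, with all 3 DKO libraries below all 3 ECKO libraries and all 3 SMKO libraries above all 3 CTRL libraries.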

How the results depend on the processing

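The number of genes called in the averaged contrast, 13, depended on the processing: it was 149 with no low-count filter, 4 with the stricter filter, 44 by DESeq2 (8 shared with the 13), 32 without the libraries under 200000 counts, 6 with a depth covariate, 5 with a mitochondrial share covariate and 26 with a Y-linked covariate. Leaving out 1 library gave 5 to 95. The other 7 alternatives gave 11 to 19. Leaving out 1 library gave 0 to 1 for SMKO against CTRL, 0 to 151 for DKO against ECKO, 0 to 62 for the difference between the components (1 by DESeq2) and 0 to 37 for endothelial deletion (1 by limma-voom). The cause of these shifts was not tested. Efemp2 missed the threshold by limma-voom (-3.44, adjusted p = 0.0993) and with library weights (-3.37, adjusted p = 0.0609). Wnt9b and LTO1 stayed called in all 26 alternatives. The call was lost in 2 of 24 for Trpv4, 5 of 24 for Sphk1, 8 of 26 for Capg, 9 of 26 for Aebp1, 10 of 26 for Atp13a3, 13 of 26 for Eln, 14 of 26 for Ccl19, 14 of 24 for Edil3, 17 of 26 for Col4a1 and 18 of 24 for Cst6, with none reversed. Genes with 24 had no DESeq2 adjusted p and did not pass the stricter filter. The Pearson r between the components, an alternative chosen after seeing the data, ranged from -0.132 without SMKO 2 to 0.363 without SMKO 1.

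Over the 4 groups replicate numbers did not clearly pair the libraries. Of 18 same-number pairs 8 had a correlation over 0.1 (range -0.241 to 0.315), against a range of -0.348 to 0.254 for other pairs. Pairs numbered 1 ran from -0.241 to 0.315, those numbered 2 from -0.0945 to 0.119 and those numbered 3 from 0.0137 to 0.247. Pairing was thus neither shown nor excluded, and the main fit has no replicate term. Between CTRL and SMKO all 3 same-number pairs were over 0.1 (0.315, 0.119 and 0.247), a hint from the data that pairing there is possible, and the block again called 0 genes in SMKO against CTRL. With a replicate block 19 genes were called on average and 50 in DKO against ECKO, and of the 13 genes Ccl19 lost its call (adjusted p = 0.0826).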
